A study of Mus musculus with 3 samples.

Results

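Interferon response and major histocompatibility complex (MHC) class I genes were examined in the cerebellum of mice whose Smarca5 gene was conditionally knocked out (cKO). The list was set by gene name, with earlier results of these data known, so its counts describe the list and do not test it. It holds 38 genes, 28 induced by interferon with antiviral roles and 10 of antigen presentation. Probes were assigned by the platform's gene symbol, with older symbols mapped to current ones, and 37 of the 38 genes had a value, among 19887 named genes and 8339 unnamed probes. Gbp3 was not analysed here. The RNA came from cerebella dissected at postnatal day 10 from C57Bl/6 mice, either wild type or with the genotype Smarca5 cKO. Smarca5 encodes Snf2h, the ATPase of ISWI chromatin remodelers. Each of 3 arrays with 2 colours held 1 wild-type and 1 cKO sample, with the dyes flipped on replicate 3. The sources used here give neither the promoter that drove the deletion nor whether a sample was 1 animal or a pool, so the spread between arrays may be technical.

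Each value is a log2 ratio, cKO over wild type, and lies above 0 where the cKO was higher. The log base is not stated, and folds hold only for base 2. Errors are standard deviations (SD) over 3 arrays, and p-values come from limma's moderated test of the ratio against 0, adjusted by the Benjamini-Hochberg method over 28226 features, with a threshold of 0.05. No intensities were used, so levels cannot be compared between genes, signal over background is unknown, and the number of arrays limits the precision. Smarca5 itself had -0.74, -0.95 and -0.88 on replicates 1, 2 and 3, a mean of -0.86 ± 0.11 (SD, n = 3). Since the lower Smarca5 helped to orient the ratios, its sign does not test the labels. Replicate 3 was oriented by 49 unnamed spots that follow the dye. These spots were picked as large on every array with the opposite sign on replicate 3. Their change of sign was therefore fixed by the choice and does not test the orientation. With these spots left out, the Pearson correlation over probes was 0.44 for replicates 1 and 2, and replicate 3 had 0.274 with replicate 1 and 0.229 with replicate 2. Over all probes it was 0.5318 for replicates 1 and 2, and replicate 3 had 0.0566 with replicate 1 and 0.0384 with replicate 2. Leaving out spots picked for the opposite sign on replicate 3 raises the values of that replicate.

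Type I interferons bind the receptor pair Ifnar1 and Ifnar2, and the kinases Jak1 and Tyk2 then phosphorylate signal transducers such as Stat2, which joins Irf9 to act on the interferon-stimulated response element (ISRE) in promoters. Interferon gamma acts through a different element, the gamma-activated site. The induced genes include sensors of viral RNA, proteins that block viral translation or entry, and the machinery that cuts peptides and shows them on MHC class I molecules. In the brain, microglia, the resident macrophages, are a main source of these transcripts, and neurons carry little MHC class I.

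Most of the measured genes had mean ratios above 0 in the cKO cerebellum, by modest amounts, and Ifit1, Ifit2 and Ifit3 had the highest means of the list. Of the 37 genes, 31 had a mean above 0, against 50.3 percent of all features. On every array 22 were above 0 (59.5%), against 22.1 percent of all features, and 1 was below 0, against 21.4 percent. By unadjusted p under 0.05, 15 were above 0, against 10.9 percent of all features, and 1 was below 0, against 9.97 percent. All features include unnamed probes. Of the 19887 named genes alone, 24.9 percent were above 0 on every array and 12.3 percent were above 0 with an unadjusted p under 0.05. The median of the 37 ratios was 0.36, beside 0.0024 for all features. No gene of the list passed limma's adjusted threshold, with a smallest adjusted p of 0.0841, and 0 of the 28226 features did (0 percent), although 5894 had an unadjusted p under 0.05. The counts depended on the orientation of replicate 3: with its sign turned, 6 genes were above 0 on every array and 1 had an unadjusted p under 0.05 above 0. Any gene above 0 on every array leaves the first count once that sign is turned, so these counts do not test the orientation. The second count was also lower without replicate 1 (7) and without replicate 2 (6).

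**Figure D1:**
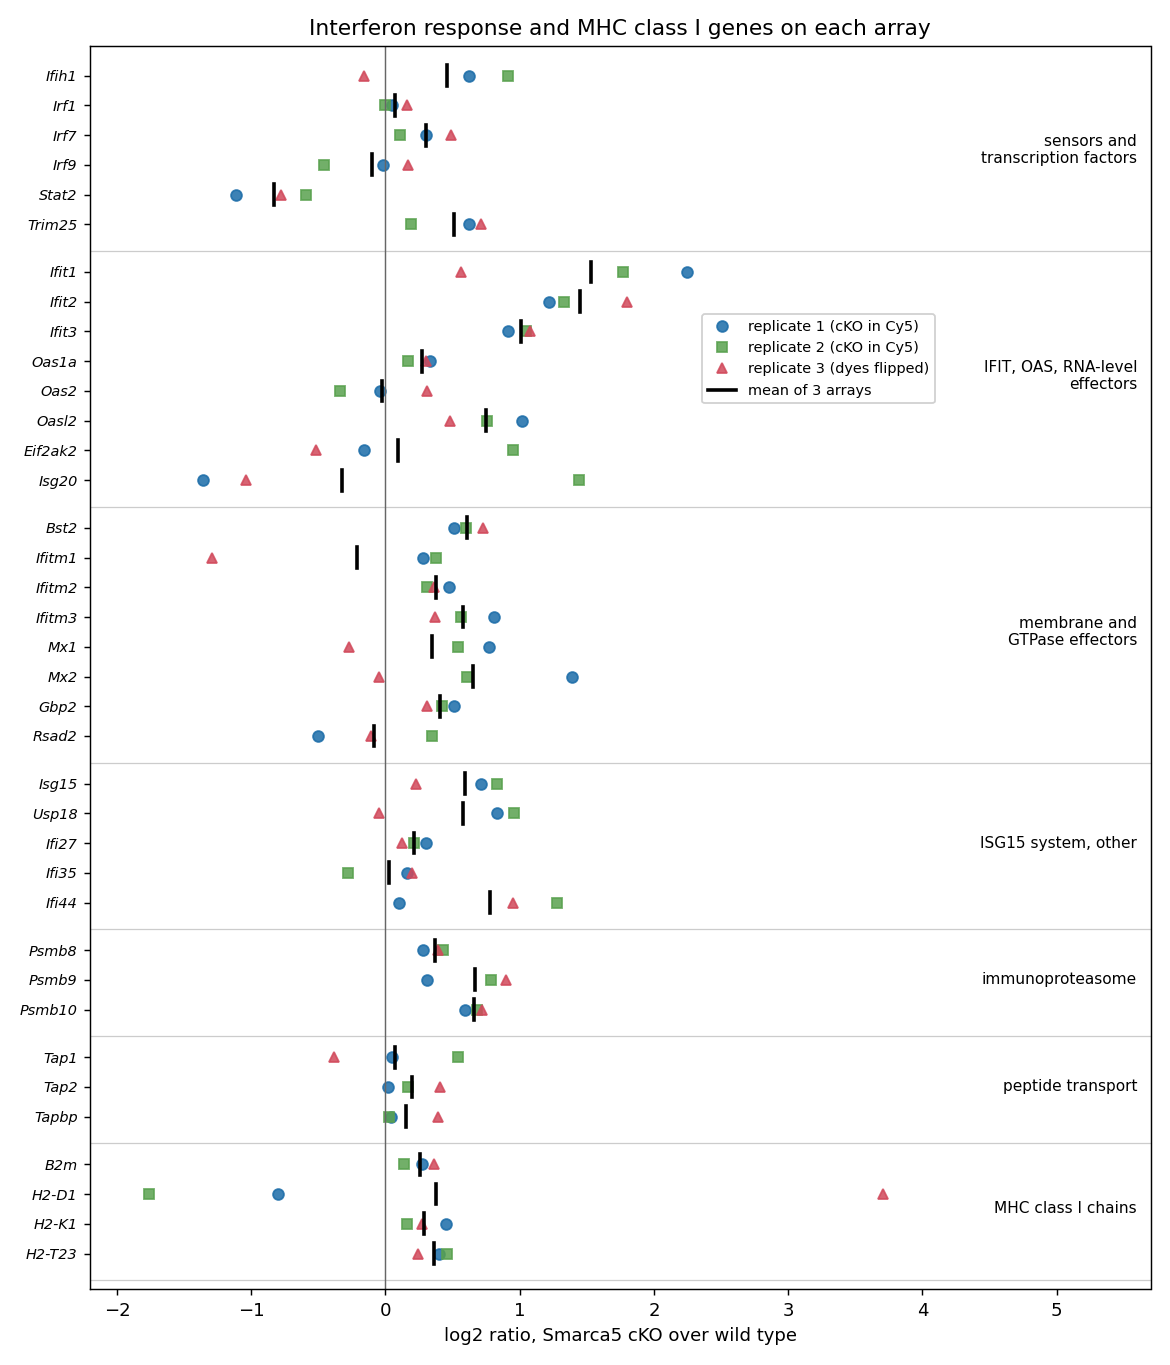
Log2 ratios of cKO over wild type (horizontal axis) for the 37 measured genes, grouped by role, with 1 marker per array and a black bar at the mean of the 3 arrays. Ifit1, Ifit2 and Ifit3 lie farthest to the right among means, Stat2 is below 0 on every array, and the H2-D1 values run from -1.76 to 3.71.

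**Figure D2:**
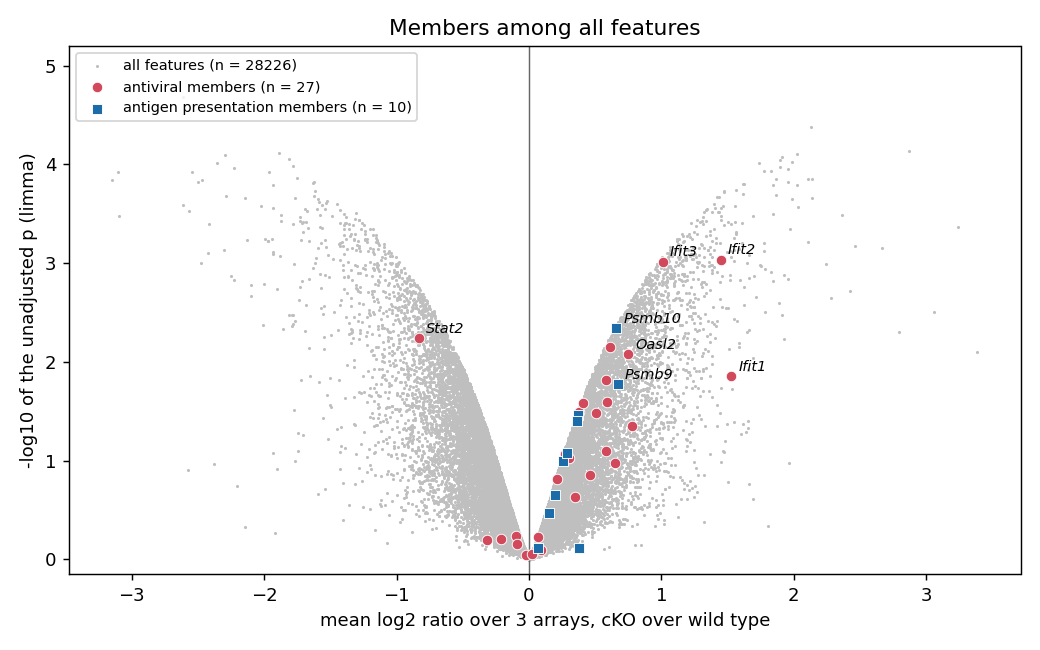
Mean log2 ratio (horizontal axis) against the negative log10 of limma's unadjusted p (vertical axis) for all 28226 features in grey, the 27 antiviral genes as red circles and the 10 antigen presentation genes as blue squares. Most coloured markers lie to the right of 0, inside the cloud of other features.

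The IFIT genes encode proteins with tetratricopeptide repeats that bind foreign RNA or block its translation. Ifit2 had 1.22, 1.33 and 1.80 on replicates 1, 2 and 3, so it was high on every array. Its mean of 1.45 ± 0.31 is 2.73-fold and lay at percentile 99.6 of all features (limma, adjusted p = 0.0841). Ifit1, which recognises RNA caps that lack a host methyl mark, had 2.25, 1.77 and 0.56. It was above 0 throughout, lowest on the dye-flipped array, with a mean of 1.53 ± 0.87 and an adjusted p of 0.142 in limma. Ifit3, a partner of Ifit1 in human cells, had 0.91, 1.05 and 1.08, the most even of the 3, with a mean of 1.01 ± 0.09 and 2.02-fold (limma, adjusted p = 0.0841). The 3 probes of Ifit3 had means from 0.65 to 1.42, and every probe was above 0 on every array. Ifit3 has a close relative, Ifit3b, which was not analysed here and whose RNA its probes may also bind.

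Promoter windows with the ISRE core are shown here and below for Ifit1, Ifit3, Bst2, Ifitm3 and Stat2. Of the listed genes that hold the core, these had the smallest unadjusted p in limma, so the choice used these data. The windows run from 250 bases before to 50 after a gene's start, from RefSeq on build GRCm38.p6, and are printed 5′ to 3′ in the gene's direction. Capitals mark matches to the ISRE core, searched on both strands as GAAA, any 2 bases and GAAA, which reads TTTC, any 2 bases and TTTC where it lies on the opposite strand. Ifit1 lies on the plus strand at chr19:34640639-34640938 and Ifit3 on the plus strand at chr19:34583279-34583578. Each holds 2 matches, and none was found in the windows of Ifit2.
Ifit1: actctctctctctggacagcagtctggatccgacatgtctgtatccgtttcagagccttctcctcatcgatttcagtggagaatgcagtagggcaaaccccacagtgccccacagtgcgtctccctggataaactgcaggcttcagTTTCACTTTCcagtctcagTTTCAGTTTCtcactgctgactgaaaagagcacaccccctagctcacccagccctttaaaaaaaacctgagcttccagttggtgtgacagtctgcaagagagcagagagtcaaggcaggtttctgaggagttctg
Ifit3: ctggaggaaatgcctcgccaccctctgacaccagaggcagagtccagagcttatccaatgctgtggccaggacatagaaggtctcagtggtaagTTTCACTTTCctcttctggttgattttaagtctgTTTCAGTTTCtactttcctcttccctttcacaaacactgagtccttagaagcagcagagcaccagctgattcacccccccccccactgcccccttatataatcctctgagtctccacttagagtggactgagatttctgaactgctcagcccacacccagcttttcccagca

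The other antiviral genes that act on RNA shared no direction. Oasl2, an antiviral relative of the oligoadenylate synthetases, had 1.02, 0.76 and 0.48, above 0 throughout, with a mean of 0.75 ± 0.27 (limma, adjusted p = 0.121). Oas1a and Oas2 are synthetases that activate the nuclease RNase L. Oas1a had 0.33, 0.17 and 0.30 with a mean of 0.27 ± 0.08, and Oas2 had -0.04, -0.34 and 0.31 with a mean of -0.022 ± 0.32. The gene copies of the Oas1 family are alike in sequence, so probes of Oas1a may also bind their RNA. Eif2ak2, the kinase PKR that stops translation when double-stranded RNA is present, had -0.16, 0.95 and -0.52. Isg20, an RNA exonuclease, had -1.36, 1.44 and -1.04. In both genes replicate 2 alone was above 0, and their SDs of 0.77 and 1.53 exceeded their means of 0.09 and -0.32. Together with the IFIT genes they form a group of 8, of which 5 were above 0 on every array (62.5%, against 22.1 percent of all features). By unadjusted p under 0.05 in limma, 4 were above 0 (50%, against 10.9 percent). Ifit1, Ifit2 and Ifit3 are in both counts, and of the other genes Oasl2 is in both and Oas1a in the first only.

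Genes for effectors at membranes and for antiviral GTPases formed a second group. Of these, 4 of 8 were above 0 on every array (50%, against 22.1 percent of all features). Bst2, or tetherin, which holds budding virus at the cell surface, had 0.51, 0.60 and 0.73, a narrow range above 0. Its mean was 0.61 ± 0.11, or 1.53-fold (limma, adjusted p = 0.115). The IFITM proteins sit in membranes and block virus entry. Ifitm3 had 0.81, 0.56 and 0.37 (mean 0.58 ± 0.22) and Ifitm2 had 0.47, 0.31 and 0.36 (mean 0.38 ± 0.08), so these neighbours on chromosome 7 were above 0 throughout. Ifitm1 had 0.28, 0.38 and -1.29, and the low value came from a single probe at -4.87 on replicate 3. The other probes of Ifitm1 had means of 0.40 and 0.59, and without the low probe the gene had 0.50.

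Windows of Bst2 and Ifitm3 are shown by the same rule of smallest unadjusted p. Both genes were above 0 on every array and carry the ISRE core at different distances from the start. Bst2 lies on the minus strand at chr8:71537423-71537722, with 2 overlapping matches 124 and 130 bases before the start. Ifitm3 lies on the minus strand at chr7:141010695-141010994, and its 2 matches begin 2 and 19 bases past the start.
Bst2: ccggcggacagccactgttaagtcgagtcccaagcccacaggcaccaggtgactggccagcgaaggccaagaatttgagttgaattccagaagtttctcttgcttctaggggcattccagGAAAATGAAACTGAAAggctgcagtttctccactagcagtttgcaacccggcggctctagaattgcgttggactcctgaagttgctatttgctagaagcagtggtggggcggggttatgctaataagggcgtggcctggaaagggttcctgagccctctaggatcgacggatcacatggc
Ifitm3: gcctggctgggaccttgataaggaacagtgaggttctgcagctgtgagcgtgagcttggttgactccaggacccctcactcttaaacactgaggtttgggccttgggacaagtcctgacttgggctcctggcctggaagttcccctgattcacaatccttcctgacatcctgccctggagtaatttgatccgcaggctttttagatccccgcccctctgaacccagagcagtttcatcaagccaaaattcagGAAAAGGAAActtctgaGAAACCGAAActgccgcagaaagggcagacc

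Gbp2, a guanylate-binding protein that attacks the vacuoles of intracellular parasites, had 0.51, 0.42 and 0.31, all above 0, with a mean of 0.41 ± 0.10. The Mx GTPases trap viral nucleoproteins, though in most inbred mouse strains, C57BL/6 among them, the Mx1 gene makes no working protein. Mx2 had 1.39, 0.61 and -0.05 and Mx1 had 0.77, 0.54 and -0.27, so both were above 0 on replicates 1 and 2 and below 0 on the dye-flipped array. The 2 probes of Mx1 differed in sign, with means of -0.14 and 0.83. Rsad2, or viperin, an enzyme that makes a chain-ending nucleotide, had -0.50, 0.35 and -0.11, with no direction shared by the arrays.

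Isg15 is a ubiquitin-like protein that is attached to other proteins, and Usp18 removes it and also damps the interferon receptor. Isg15 had 0.71, 0.83 and 0.23 with a mean of 0.59 ± 0.32 (limma, adjusted p = 0.18), above 0 on every array. Usp18 had 0.83, 0.96 and -0.05 with a mean of 0.58 ± 0.55, so it crossed 0 on the dye-flipped array. Ifi44 had 0.10, 1.28 and 0.95, and both of its probes were above 0 on every array, with a mean of 0.78 ± 0.61. Ifi27 had 0.30, 0.21 and 0.12, above 0 but small, and Ifi35 had 0.16, -0.28 and 0.20, around 0. Isg15 and Ifi27 were named through synonyms of their array symbols, as were Irf9, Eif2ak2, Rsad2 and 1 probe of Ifi44.

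The genes that sense RNA and carry the interferon signal into the nucleus had a median of 0.18. Of these, 2 of 6 were above 0 on every array (33.3%, against 22.1 percent of all features). Stat2, the signal transducer particular to type I and type III interferons, was below 0 with -1.11, -0.59 and -0.78. Its mean of -0.83 ± 0.26 is 1.77-fold lower and lay at percentile 3.21 of all features, from 1 probe (limma, adjusted p = 0.108). Irf9, its partner, had -0.02, -0.46 and 0.17 with a mean of -0.10 ± 0.32, around 0. Irf7, the factor that amplifies type I interferon production, had 0.30, 0.11 and 0.49 with a mean of 0.30 ± 0.19, above 0 on every array. Irf1, which responds to interferon gamma and drives MHC class I genes, had 0.05, 0 and 0.16, and its 3 probes had means from -0.36 to 0.41. Trim25, the ubiquitin ligase that helps activate RIG-I, had 0.62, 0.19 and 0.71 with a mean of 0.51 ± 0.28, all above 0. Ifih1, the RNA sensor Mda5, had 0.62, 0.91 and -0.16, below 0 only on the dye-flipped array.

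The window of Stat2 is shown by the same rule of smallest unadjusted p. Stat2 holds the same core as Ifit1 and Ifit3, and its ratio went the other way. It lies on the plus strand at chr10:128270248-128270547, with 1 match 222 bases before the start.
Stat2: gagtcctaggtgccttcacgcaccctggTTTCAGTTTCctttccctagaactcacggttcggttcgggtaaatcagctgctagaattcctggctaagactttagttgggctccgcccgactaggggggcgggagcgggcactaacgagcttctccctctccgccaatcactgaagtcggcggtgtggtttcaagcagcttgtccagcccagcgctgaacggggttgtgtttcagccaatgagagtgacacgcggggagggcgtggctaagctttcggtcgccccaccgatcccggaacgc

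All 10 antigen presentation genes had a mean above 0, against 50.3 percent of all features, and 8 were above 0 on every array, against 22.1 percent. The immunoproteasome subunits, which replace constitutive subunits and change which peptides are cut, were among the highest of them. Psmb10 had 0.59, 0.68 and 0.72 with a mean of 0.66 ± 0.07, or 1.58-fold (limma, adjusted p = 0.105). Psmb9 had 0.31, 0.79 and 0.90 with a mean of 0.67 ± 0.31, and Psmb8 had 0.28, 0.43 and 0.39 with a mean of 0.37 ± 0.08. Of the 3 probes of Psmb8, 2 were above 0 on every array. Averaged over probes, all 3 subunits were above 0 on every array, against 22.1 percent of all features, each with an unadjusted p under 0.05 in limma, against 10.9 percent above 0. The subunits they replace are Psmb5 (by Psmb8), Psmb6 (by Psmb9) and Psmb7 (by Psmb10). Psmb5 had 0.06 ± 0.18, Psmb6 had 0.32 ± 0.14 and Psmb7 had 0.06 ± 0.10. Of 14 constitutive subunits, 3 were above 0 on every array (21.4%, near the 22.1 percent of all features), 0 reached an unadjusted p under 0.05 in limma in either direction, and the median was 0.036. Psmb3 had 0.13 ± 0.09 and Psmb4 -0.30 ± 0.28.

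Genes for peptide transport and loading were closer to 0, with a median of 0.15 over 3 genes. Tap1 and Tap2 form the transporter that carries peptides into the endoplasmic reticulum. Tap1 had 0.05, 0.54 and -0.38, around 0, and Tap2 had 0.02, 0.17 and 0.41, above 0 throughout with a mean of 0.20 ± 0.20. Tapbp, or tapasin, which bridges the transporter to MHC class I, had 0.04, 0.03 and 0.39, with a mean of 0.15 ± 0.21. None of the 3 had an unadjusted p under 0.05 in limma.

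Tap1 and Psmb9 are neighbours on chromosome 17 that start back to back, and their windows share 275 bases. Psmb9 lies on the minus strand at chr17:34187281-34187580 and Tap1 on the plus strand at chr17:34187306-34187605. The Tap1 window is shown because 1 stretch of DNA serves both genes while their ratios, 0.67 ± 0.31 for Psmb9 and 0.07 ± 0.46 for Tap1, had different means. Their values overlapped between arrays, each gene had 1 probe, and the difference was not tested. Capitals mark the shared part, which holds no match to the ISRE core.
Tap1: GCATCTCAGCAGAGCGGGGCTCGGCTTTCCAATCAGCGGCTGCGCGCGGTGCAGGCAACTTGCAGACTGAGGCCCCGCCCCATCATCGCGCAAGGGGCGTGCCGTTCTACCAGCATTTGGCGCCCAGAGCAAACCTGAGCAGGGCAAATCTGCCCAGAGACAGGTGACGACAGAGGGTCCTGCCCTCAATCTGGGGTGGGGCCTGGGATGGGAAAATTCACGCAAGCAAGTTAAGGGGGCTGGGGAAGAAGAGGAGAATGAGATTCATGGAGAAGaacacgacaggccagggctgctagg

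B2m encodes beta-2 microglobulin, the light chain of every MHC class I molecule, and was spotted 77 times. Its average over these probes was 0.27, 0.14 and 0.36, above 0 on each array, with a mean of 0.26 ± 0.11, or 1.2-fold (limma, adjusted p = 0.335). Single probes ranged from -0.52 to 1.42 on replicate 1, from -1.20 to 1.30 on replicate 2 and from -1.07 to 1.11 on replicate 3. They were above 0 for 63, 54 and 68 of the 77 probes on the 3 arrays. Such spread around 1 gene shows how far a single spot can lie from the average. Other genes spotted 61 to 95 times had means from -0.38 ± 0.04 (Tbp) to 0.16 ± 0.18 (Tln1), so B2m had the highest mean of the 7 genes repeated this often.

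The heavy chains H2-K1 and H2-T23 were above 0 and H2-D1 was not stable. H2-K1, a classical chain that shows peptides to cytotoxic T cells, had 0.45, 0.16 and 0.27 with a mean of 0.29 ± 0.15. H2-T23, the non-classical chain Qa-1 read by receptors of natural killer cells, had 0.40, 0.46 and 0.24 with a mean of 0.36 ± 0.11. Its 2 probes had means of 0.13 and 0.60, and the lower probe had -0.01 on replicate 1. H2-D1, the other classical chain, had -0.80, -1.76 and 3.71, negative on replicates 1 and 2 and strongly positive on the dye-flipped array, so its mean of 0.38 ± 2.92 rests on replicate 3. Without that array it was -1.28. Class I heavy chains are alike in sequence, so which of them a probe measured is uncertain.

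**Figure D3:**
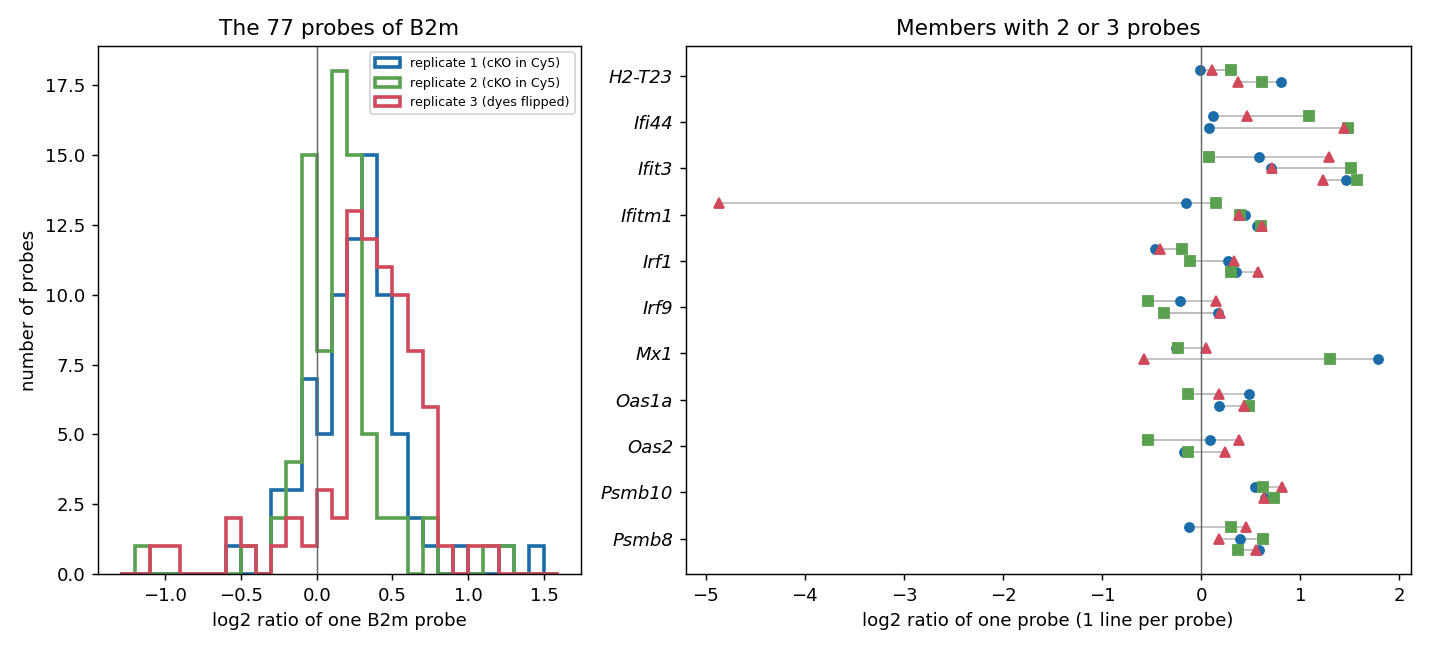
Log2 ratios of single probes. The left panel counts the 77 probes of B2m by ratio on each array, most of them above 0, and the right panel gives 1 line per probe for genes with 2 or 3 probes, where the Ifitm1 probe at -4.87 on replicate 3 and the Mx1 probes of opposite sign stand out.

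The antiviral and the antigen presentation genes had similar medians, and the means of the antiviral genes covered a wider range. The antiviral genes had a median of 0.38 over 27 genes, with means from -0.83 to 1.53. The antigen presentation genes had a median of 0.33 over 10 genes, within 0.07 to 0.67. Above 0 on every array were 14 of 27 antiviral genes (51.9%) and 8 of 10 antigen presentation genes (80%), against 22.1 percent of all features. The mean of the antiviral genes minus that of the antigen presentation genes was 0.24, 0.36 and -0.51 on the 3 arrays, an average of 0.03 ± 0.47. The difference was positive on replicates 1 and 2 and negative on the dye-flipped array. Its average was -0.078 without replicate 1, -0.13 without replicate 2, 0.30 without replicate 3 and -0.11 with a dye term. Without H2-D1 it was 0.14, 0.14 and -0.18, with the same change of sign, and the average of 0.034 ± 0.19 was smaller than its spread.

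The rank of replicate 3 within each gene is given as a description. The dye-flipped array was the lowest of the 3 for 12 of 27 antiviral genes (44.4%) and the highest for 9. It was the lowest for 2 of 10 antigen presentation genes and the highest for 6 (60%). Over all features it was the lowest for 36.9% and the highest for 33%. The median SD over arrays was 0.31 for antiviral genes, 0.17 for antigen presentation genes and 0.29 for all features. A dye effect and a difference between the samples of replicate 3 cannot be told apart with 1 flipped array.

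Of 14 measured genes of interferon receptors and JAK-STAT signalling, 3 were above 0 and 3 below 0 on every array, shares near those of all features (22.1 and 21.4 percent), and the median was 0.03. Ifnar1 had 0.027 ± 0.25, Ifnar2 -0.37 ± 0.32, Ifngr1 0.043 ± 0.35 and Ifngr2 -0.11 ± 0.12, none with an unadjusted p under 0.05. Socs3, a feedback inhibitor of cytokine receptors, was below 0 with -0.93, -1.32 and -1.63, a mean of -1.29 ± 0.35 (limma, adjusted p = 0.0885). Ptpn6, the phosphatase Shp1 of blood and microglial cells, had 0.53, 0.91 and 0.63, a mean of 0.69 ± 0.20. Of smaller size were Il10rb, a receptor chain shared with interleukin 10, at 0.12 ± 0.10 and the kinase gene Tyk2 at -0.35 ± 0.25.

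Sensors of nucleic acids and the factors they activate had 8 of 19 genes above 0 on every array (42.1%, against 22.1 percent of all features) and 1 below, with a median of 0.17. Irf5, a factor of myeloid cells, had 0.93 ± 0.20 and Traf3, an adaptor of this signalling, had 0.75 ± 0.15. Both were above 0 on every array. Irf3, the factor that starts interferon beta transcription, had -0.24 ± 0.02, below 0 throughout. Among 14 interferon genes themselves, 3 were above 0 on every array (21.4%), a share near that of all features (22.1 percent), 1 was below 0, and the median was 0.092. Ifnb1, interferon beta, had 0.42, 0.57 and 0.42, a mean of 0.47 ± 0.09 (limma, adjusted p = 0.15), while Ifng, interferon gamma, had -0.32, 0.10 and 0.80. Ifna5 had 0.58 ± 0.52 and Ifnk, an interferon of skin, had -0.65 ± 0.46. Whether these ligand probes lay above background is unknown here.

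A wider list of interferon-stimulated genes also had a median above 0. Of 46 measured genes, 19 were above 0 on every array (41.3%, against 22.1 percent of all features) and 5 below (against 21.4 percent), and the median was 0.23. By unadjusted p under 0.05, 13 were above 0 (28.3%, against 10.9 percent) and 2 below (against 9.97 percent). Lgals3bp, a secreted glycoprotein, had 1.02, 1.42 and 1.03, a mean of 1.16 ± 0.23, and Slfn2, a growth regulator of immune cells, had 0.79 ± 0.27. Tgtp1, an immunity-related GTPase, was below 0 at -0.71 ± 0.29, and Ifi203, a nuclear protein of the HIN-200 family, at -1.49 ± 1.08. For further genes of MHC class I presentation, 8 of 20 were above 0 on every array (40%, against 22.1 percent) and 2 below, with a median of 0.13. H2-Q10 had 0.60 ± 0.18 and H2-Bl 0.52 ± 0.13, and Mr1, which shows vitamin metabolites to T cells, had -0.43 ± 0.17. H2-T10, a non-classical chain, had -0.23 ± 0.20. Nlrc5, the activator of class I genes, was not analysed here.

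MHC class II genes, which are expressed by professional antigen-presenting cells, had a median of 0.35 over 9 genes, and 3 were above 0 on every array (33.3%, against 22.1 percent of all features). Cd74, the invariant chain, had 0.81, 0.57 and 0.52, a mean of 0.64 ± 0.16, and H2-Ab1 had 0.65 ± 0.23. The medians of this list were 0.52, 0.57 and -0.19 on the 3 arrays, again lowest on the dye-flipped one. Ciita, the activator of class II genes, had 0.10 ± 0.40.

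Markers of microglia were above 0 on the same arrays. Of all features, 22.1 percent were above 0 on every array and 21.4 percent below. Of 19 measured markers of microglia and macrophages, 18 were above 0 on every array (94.7%). The mean of the list was 0.79, 0.83 and 0.89 on replicates 1, 2 and 3. Fcer1g had 1.17 ± 0.11 and Aif1 had 1.22 ± 0.19. This list had a mean of 0.84 ± 0.05. The 37 interferon and class I genes together had list means of 0.34, 0.42 and 0.33 (0.36 ± 0.05), the antiviral genes 0.41, 0.52 and 0.19 (0.37 ± 0.17) and the antigen presentation genes without H2-D1 0.27, 0.38 and 0.37 (0.34 ± 0.06). Markers of neutrophils and monocytes were above 0 on every array for 6 of 10 genes (60%), with list means of 0.57, 1.41 and 0.41. Markers of T and natural killer cells had 3 of 15 above (20%) and 3 below 0 on every array, near the shares of all features. B cell markers had 2 of 6 above (33.3%) and 1 below. Meningeal markers had 7 of 10 above 0 on every array (70%) and 1 below, and astrocyte markers 6 of 10 above (60%) and 1 below. Endothelium and pericyte markers had 4 of 13 above (30.8%) and 4 below. Granule neuron markers were below 0 on every array for 12 of 13 genes, against 21.4 percent of all features, with a median of -1.34. As these are ratios, no summed level of a marker list could be given. In whole cerebellum, a different number of cells of a type and a different amount of RNA per cell cannot be told apart. The part of these cell types in the interferon and class I ratios was not tested.

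**Figure D4:**
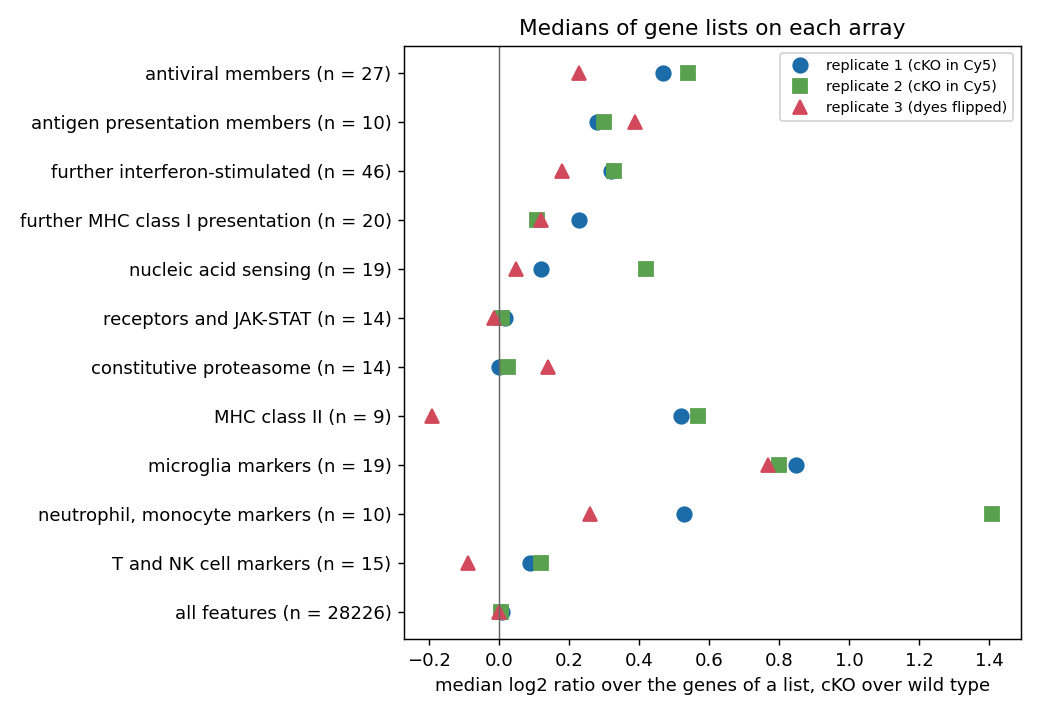
Median log2 ratio over the genes of each list (horizontal axis) on each array, with the number of measured genes in brackets. The antiviral and antigen presentation medians lie above 0 on every array and below the microglial medians, and the medians of receptors and JAK-STAT genes lie close to 0.

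The ISRE core was common in the windows of the list's genes, which were chosen for their known induction by interferon. It was found, on either strand, in 12 of 22 antiviral genes with a window and a value (54.5%) and in 2 of 9 antigen presentation genes (22.2%). Among all 15590 genes with a window and a value, 588 held it (3.77%). Antiviral genes with the core had a median ratio of 0.44 over 12 genes and those without it 0.18 over 10 genes. For antigen presentation genes the order was the other way, 0.31 over 2 genes with the core and 0.37 over 7 without it, and neither difference was tested. Over all genes with the core the median was 0.04 and 25.3% were above 0 on every array, beside 0.01 and 24.8% for the 15002 genes without it. The gamma-activated site TTCNNNGAA, which can overlap the ISRE core and reads the same on both strands, was in 8 of the 22 antiviral genes and in 1 of the 9 antigen presentation genes, Psmb8. It was in 8.94% of all 15590 genes. These matches describe letters in a window and no binding was measured.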

How the data were processed

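Each array gave 1 log ratio per probe, deposited by the authors as a table centred on 0 and taken here as log2, since the base is not stated. The sources used here do not name the scanner software, the background correction or the normalization. Trizol was used for RNA and a Genisphere 3DNA kit for labelling, per the labels' protocols. Of 38880 probes, 30457 had 1 gene symbol in the platform annotation, 0 had several and 8423 had none. In a RefSeq gene table, 18812 probes matched a current symbol and 11220 a synonym of 1 gene, while 162 had a synonym of several genes and 263 were not matched. The 49 unnamed spots over 5 in size on every array with the opposite sign on replicate 3 were left out. Probes of a gene were averaged on each array, and features with a value on all 3 arrays were kept. The log ratios were fitted with limma 3.58.1 (lmFit, eBayes) in R 4.3.3, with tables and figures from Python 3.11.15, pandas 2.3.3 and matplotlib 3.10.9. The fit was also run on simulated data with independent normal noise and no dye effect, so that run does not test how it handles a dye effect. All genes of the list were named, and of each further list the 2 genes of smallest p above 0 and the 2 below 0 on every array, with a few genes fixed by name. Of the marker lists, only microglial genes are given by name. The members and lists were chosen with earlier results of these data known. Alternatives changed the centring, the scaling, the dye term, the orientation of replicate 3, the symbols, the treatment of probes and of marker spots, the moderation and the arrays used.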

Additional observations from a re-analysis of the deposited data

How the results depend on the processing

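No gene of the list passed the adjusted threshold under any alternative that was run, and the smallest adjusted p was 0.0824. Without moderation 2 features of all passed. Of 475 alternative values of single genes, 451 kept the direction, but many of these could not change it. The moderation alters only p, and the marker spots belong to no gene of the list. For the 25 genes with 1 probe, the median over probes equals the mean. The other 24 values, in 13 genes, were on the other side of 0. None of these was past the threshold and the causes were not tested. With the sign of replicate 3 turned, 6 genes were above 0 on every array, 1 was above 0 with an unadjusted p under 0.05, the medians were 0.21 for antiviral and 0.087 for antigen presentation genes, and the difference of their means was 0.37. Under that setting Irf1 had -0.037, Irf7 -0.027, Ifi35 -0.11, Tap2 -0.073, Tapbp -0.11, H2-D1 -2.09, Isg20 0.37 and Ifitm1 0.65. With a dye term that difference was -0.11, and Oas2 had 0.061, Eif2ak2 -0.062 and Tap1 -0.043. Ifitm1 had 0.40 as the median of its probes and 0.50 without probes over 3 in size, an alternative chosen after seeing the data. Leaving out 1 array at a time gave 6 to 13 genes above 0 with an unadjusted p under 0.05 (7 without replicate 1, 6 without replicate 2). It moved the difference of the means between -0.13 and 0.30, Irf9 between -0.24 and 0.075, Oas2 between -0.19 and 0.14, Eif2ak2 between -0.34 and 0.40, Isg20 between -1.20 and 0.20, Ifitm1 between -0.51 and 0.33, Rsad2 between -0.30 and 0.12, Ifi35 between -0.06 and 0.18, Tap1 between -0.17 and 0.29 and H2-D1 between -1.28 and 1.46. With each probe on its own only the counts of genes were recomputed. No filter on dim probes was run, since no intensities were used. Each array holds 1 ratio of cKO over wild type, so the test of the ratio against 0 already pairs the samples of an array.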

Other observations

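Values of some relatives of the listed genes follow. They were chosen after their values were seen, and none of the differences between relatives was tested. Among immunity-related GTPases, which damage the vacuoles of parasites, Irgm1 had 0.44, 1.00 and 0.94 (mean 0.79 ± 0.31), Irgm2 0.52 ± 0.38, Igtp 0.45 ± 0.21 and Iigp1 0.64 ± 0.48. These were above 0 on every array, against 22.1 percent of all features. Ifi47, of the same family, had 0.65, 0.59 and -0.15, and Tgtp1 was below 0 on every array at -0.71 ± 0.29. In the HIN-200 family, Ifi204 had 1.15, 1.91 and 0.58 (mean 1.21 ± 0.67) and Ifi203 had -2.71, -0.65 and -1.12, so their values did not overlap. Among guanylate-binding proteins, Gbp4 had 0.43 ± 0.38, Gbp5 0.20 ± 0.37, Gbp6 0.22 ± 0.38 and Gbp7 0.037 ± 0.50. All had means above 0, as Gbp2 had, against 50.3 percent of all features, and for Gbp5, Gbp6 and Gbp7 the SD exceeded the mean. In the OAS family, Oas3 was below 0 on every array at -0.34 ± 0.30 and Oasl1 had 0.02 ± 0.26, beside 0.75 ± 0.27 for Oasl2. Oas1b had -0.03 ± 0.39 and Oas1g 0.23 ± 0.52, each with values on both sides of 0. Among relatives of the RNA sensor Ifih1, Ddx58 (RIG-I) had 0.10 ± 0.19 and Dhx58 (Lgp2) -0.12 ± 0.11. Cmpk2, which lies next to Rsad2 and is induced with it, had 0.42, 1.09 and 0.74, above 0 on every array, while Rsad2 had -0.087 ± 0.43. Tlr3, the endosomal receptor of double-stranded RNA, had 1.18, 0.73 and 0.63, a mean of 0.85 ± 0.29. None of these genes passed limma's adjusted threshold.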
